A study of Homo sapiens with 6 samples.

Results

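Where on the chromosomes CDK2 and PARP1 were found relative to each other was compared 30 min after progestin, by chromatin immunoprecipitation and sequencing (ChIP-seq) with 1 library for each protein. The comparison used the windows of 10 kb on the 22 autosomes that held a mean of at least 10 reads over the 6 libraries of the series. This rule kept 263610 of the 303641 windows of the deposited table, of which 288113 were autosomal. Of the 24503 autosomal windows left out, 20643 held 0 reads in all libraries. The 149 windows just inside the limit (mean 10 to 11) held medians of 3 CDK2 and 11 PARP1 reads at 30 min, and those just outside (mean 9 to 10) held 2 and 12. The rule did not use the ratio of both proteins. Coordinates are those of the human build hg19.

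All libraries came from T47D-MTVL, a line derived from the T47D human breast cancer cells, which carries the progesterone receptor and an integrated reporter gene under the promoter of mouse mammary tumour virus. Cells were kept in hormone-depleted serum, then without serum, and were exposed to 10 nM R5020, a synthetic progestin, for 5 or 30 min before fixation with formaldehyde. The cells at 0 min received no hormone. There was 1 library per protein and time, so no value carries an error between replicates, an interval covers the scatter of counts within libraries only, and each comparison is between libraries rather than between conditions.

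CDK2 is a cyclin-dependent kinase that works with cyclin E and cyclin A and phosphorylates proteins of the cell cycle and of chromatin. PARP1 binds nucleosomes and DNA breaks and joins chains of ADP-ribose to itself, to histones and to other proteins. The study asked how CDK2 activates PARP1 when progestin acts on breast cancer cells, in which the hormone receptor changes transcription within minutes.

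The libraries of 30 min held 40097131 CDK2 and 63448449 PARP1 reads, and the other 4 held between 45111064 and 58495554. Each window was scaled by the total of its library, and the ratio given throughout is scaled CDK2 over scaled PARP1. Neighbouring windows differed more than independent reads would. The variance of that difference over its Poisson expectation (the dispersion, 1 for independent reads) was 24.1 for CDK2 and 8.67 for PARP1 at 30 min, and 7.44 and 6.12 at 0 min. The CDK2 library of 5 min stood apart, with a dispersion of 51.8 and 0 reads in 2735 compared windows, against 389 in CDK2 at 30 min and 4 in PARP1 at 30 min. The 30 min ratio contains no read of that library. Intervals called widened are 95% intervals on counts divided by these dispersions.

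At 30 min CDK2 took a larger share of its reads than PARP1 on most gene-dense chromosomes and a smaller share on most gene-poor ones. Chromosome 22 held 0.925% of CDK2 and 0.807% of PARP1 reads. Its ratio of 1.15 (1.13 to 1.17, as all intervals below widened) was the highest of all autosomes. Chromosome 19, the autosome with the most protein-coding genes for its length, held 1.42% of CDK2 and 1.25% of PARP1 reads, a ratio of 1.13 (1.11 to 1.15). Chromosomes 16, 20 and 17 followed, each with a ratio of 1.06 to 1.07. These 5 chromosomes stood apart from the sixth, chromosome 9, at 1.02 (1.01 to 1.03).

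At the other end, chromosome 4 held 4.78% of CDK2 and 4.94% of PARP1 reads, a ratio of 0.967 (0.960 to 0.975). Chromosome 13 had 0.971 (0.962 to 0.981), chromosome 8 had 0.974 and chromosome 3 had 0.975. The widened intervals of these 4 overlap, so their order is not resolved. In all, the interval lay above 1 on 9 chromosomes and below 1 on 8. Chromosome 1, among the 9 with 1.01 (1.01 to 1.02), includes the window chr1:560001-570000, whose ratio was 7.69. Which chromosomes lie below 1 rests on scaling by totals. With scaling factors by the TMM method (trimmed mean of M values), chromosome 4 had a ratio of 0.999 and chromosomes 3, 5, 6, 7, 8, 12 and 13 lay above 1. The ratio of chromosome 22 over that of chromosome 4 depends on no scaling, and was 1.19 (1.16 to 1.21) at 30 min.

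Before hormone the chromosomes lay closer together. At 0 min the ratios ran from 0.993 to 1.02, with chromosome 19 highest. Chromosome 22 over chromosome 4 gave 1.00 (0.990 to 1.02), and chromosome 19 over chromosome 4 gave 1.02 (1.01 to 1.03), an interval above 1. At 30 min the latter was 1.17 (1.15 to 1.19). At 5 min the order was turned around, with 0.844 on chromosome 22, 0.871 on chromosome 19 and 1.08 on chromosome 4, and chromosome 22 over chromosome 4 gave 0.779 (0.759 to 0.799). With scaling by totals, 17 of 22 chromosomes lay on opposite sides of 1 at 5 and 30 min. The 3 times use 6 separate libraries.

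Gene density was taken as the number of protein-coding genes in the RefSeq table per Mb of compared windows. It ran from 3.55 on chromosome 13 to 26.4 on chromosome 19. Over the 22 autosomes its Spearman correlation with the ratio was 0.8001 at 30 min, -0.811 at 5 min and 0.0909 at 0 min. Pearson's r with the log2 ratio was 0.826, -0.780 and 0.561 in the same order, so by this measure alone the ratio at 0 min also rose with gene density. Chromosome 19, the densest, also had the highest ratio at 0 min, 1.02, and r at 0 min was not computed without it. Without the 2 chromosomes farthest from the median density the Spearman value at 30 min was 0.749. Chromosomes share their libraries and depth, so these are descriptions. Their base composition was not computed, and what it contributes was not tested. Chromosome 18, as gene-poor as chromosome 13, departed from the order with 0.998 (0.987 to 1.01). So did chromosome 11, with 9.99 genes per Mb against 9.04 on chromosome 20, and a ratio of 0.999 (0.992 to 1.01) against 1.07.

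**Figure D1:**
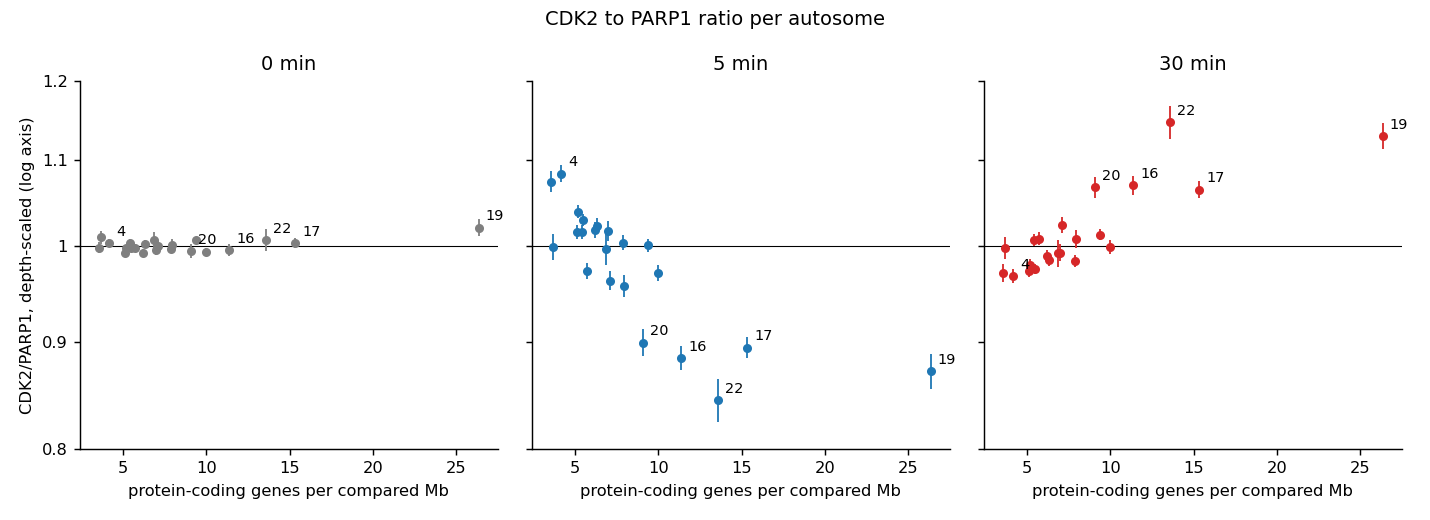
Depth-scaled CDK2/PARP1 ratio (log axis) of each autosome against its protein-coding genes per compared Mb at 0, 5 and 30 min; points are single libraries' ratios and bars widened 95% intervals. At 30 min chromosomes 22 and 19 lie highest, at 1.15 and 1.13, and at 5 min they lie lowest, at 0.844 and 0.871.

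Reads were then summed to blocks of 1 Mb with at least 50 compared windows, which gave 2660 blocks. Calls on blocks needed a ratio of 1.1 or more, or of 0.909 or less, with a widened interval that left out 1. At 30 min CDK2 was higher in 333 blocks (12.5%) and lower in 260 (9.77%). With TMM factors these became 534 higher and 81 lower, so the split depends on the scaling. Against the median block of its own comparison, 15.8% of blocks lay at least 1.1-fold above and 8.95% at least 1.1-fold below.

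Before hormone 4 blocks (0.15%) passed as higher and 0 as lower. The 5 min libraries gave 549 higher blocks (20.6%) and 597 lower ones (22.4%). The SD of the block log2 ratios was 0.124 at 30 min, against 0.0692 from the dispersions of both libraries. It was 0.0417 against 0.0423 at 0 min and 0.201 against 0.0847 at 5 min. The block ratios at 0 min thus varied about as much as the dispersions give, and those at 5 and 30 min varied more.

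The same blocks carried opposite ratios at 5 and 30 min. Across blocks, which share libraries and depth and are not independent, the Spearman correlation of the ratios was -0.742 between 30 and 5 min and 0.158 between 30 and 0 min. Of the 333 blocks higher at 30 min, 259 were called lower at 5 min and 1 was called higher. Of the 260 blocks lower at 30 min, 169 were called higher at 5 min and 0 lower. The higher blocks had a median ratio of 1.01 at 0 min, 0.830 at 5 min and 1.16 at 30 min, and the lower blocks 0.993, 1.17 and 0.887.

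**Figure D2:**
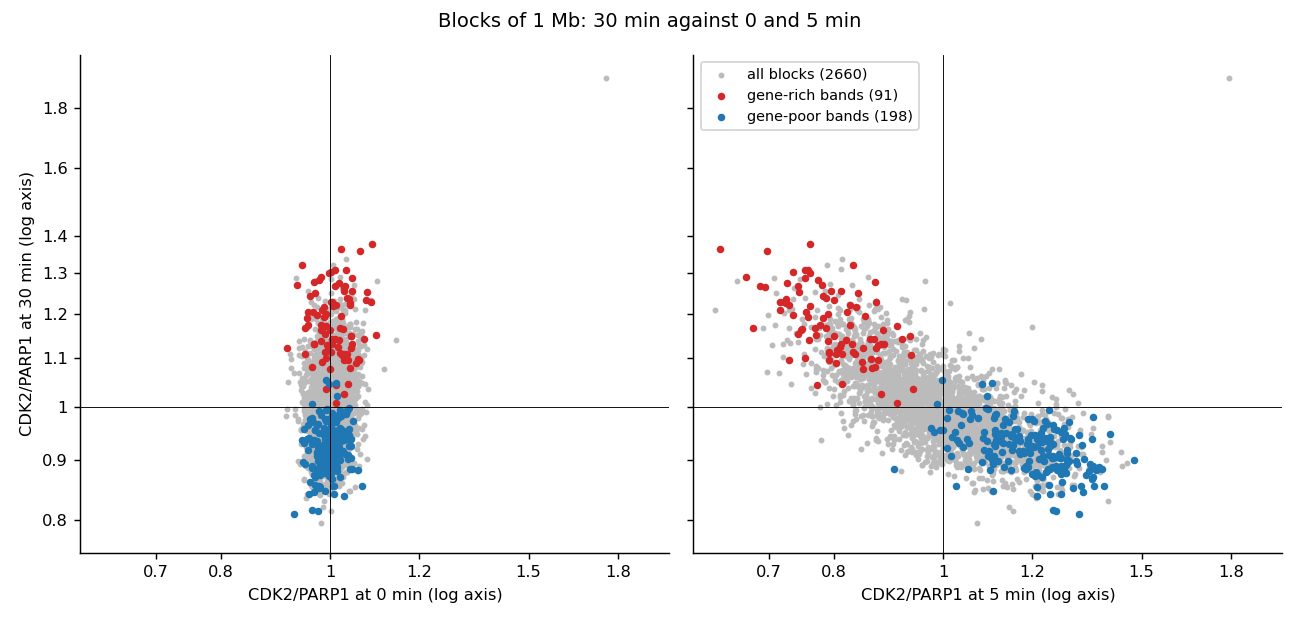
Each point is a block of 1 Mb, with its CDK2/PARP1 ratio at 30 min against that at 0 min (left) and 5 min (right), all on log axes. Red and blue mark blocks of the named gene-rich and gene-poor bands, and the lone point at the top right is the block of chromosome 5 with a ratio of 1.91 at 30 min.

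For both proteins, reads per 1000000 of the library total are called levels here. They are shares of the reads of 1 library, not amounts of bound protein, and no input library was set against them. In the higher blocks the median CDK2 level was 262 at 0 min, 252 at 5 min and 325 at 30 min, and the PARP1 level 257, 293 and 279. In the lower blocks CDK2 had 412, 424 and 336, and PARP1 413, 366 and 382. In the higher blocks the median ratio of 30 to 0 min was 1.27 for CDK2, with 333 of 333 above 1, and 1.104 for PARP1, with 318 above 1. In the lower blocks it was 0.815 for CDK2, with 0 of 260 above 1, and 0.920 for PARP1, with 25 above 1. The blocks were chosen by their CDK2 and PARP1 reads at 30 min, so these levels describe them and do not show which protein changed. Coverage before hormone moved with the calls, since the median PARP1 level at 0 min was 321 in blocks not called. Its part in the result was not tested.

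Each library of 30 min was also set against those of other times, a comparison chosen after the data had been seen. Against PARP1 at 0 min, CDK2 at 30 min had 657 blocks higher and 697 lower, and gene-rich bands had 1.31. Against PARP1 at 5 min it had 166 and 105, and 1.099. When CDK2 at 0 min was set against PARP1 at 30 min, gene-rich bands had 0.903 and gene-poor bands 1.08. With CDK2 at 5 min they had 0.854 and 1.14. These comparisons share libraries with each other and with the ratio at 30 min.

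Most of the highest blocks lay near chromosome ends. The first in rank, chr5:134000001-135000000, was an exception and is described with the single windows. The block chr9:139000001-140000000, at the end of its long arm, held 22339 CDK2 and 25896 PARP1 reads at 30 min. Per 1000000 reads CDK2 had 352, 289 and 557 there in time order, and PARP1 344, 456 and 408. CDK2 was highest at 30 min and lowest at 5 min there, and PARP1 highest at 5 min. The ratio was 1.02, 0.633 and 1.37 (widened interval 1.27 to 1.47).

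The first block of chromosome 19, 1 to 1000000, had CDK2 levels of 127, 119 and 194 and PARP1 levels of 117, 156 and 141.2 at the 3 times. Its ratio was 1.38 (1.21 to 1.56) at 30 min. The neighbouring block, 1000001 to 2000000, had 1.36 (1.22 to 1.51). Further along, chr19:54000001-55000000, in 19q13.4, had 1.34 (1.203 to 1.49). In each of these blocks CDK2 at 30 min was the highest of the 3 CDK2 libraries.

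Among the remaining highest blocks were blocks near both ends of chromosome 16. The block 1000001 to 2000000 had 1.302 (1.19 to 1.42), and 89000001 to 90000000 had 1.301 (1.21 to 1.397). The others were chr20:60000001-61000000 with 1.32 (1.21 to 1.44), chr4:7000001-8000000 with 1.32 (1.199 to 1.455) and chr8:143000001-144000000 with 1.29 (1.196 to 1.39). Chromosomes 4 and 8 as a whole lay among the lowest, so the blocks of a chromosome did not move together.

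The lowest blocks were interior. The block chr11:81000001-82000000 held 11589 CDK2 and 23058 PARP1 reads, and had the lowest ratio of all blocks, 0.795 (0.720 to 0.877). Its CDK2 level was 379, 367 and 289 at 0, 5 and 30 min and its PARP1 level 387, 343 and 363. Here the ratio at 5 min, 1.07, was only slightly above 1. The block chr5:120000001-121000000 had CDK2 levels of 401, 483 and 309 and PARP1 levels of 406, 345 and 372, with ratios of 0.988, 1.399 and 0.830 (0.754 to 0.912). Chromosome 1 gave 198000001 to 199000000 with 0.821 (0.760 to 0.887) and 188000001 to 189000000 with 0.845 (0.777 to 0.918).

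The other named low blocks were chr6:55000001-56000000 (0.815), chr5:85000001-86000000 (0.816), chr4:138000001-139000000 (0.815), chr13:57000001-58000000 (0.809), chr11:39000001-40000000 (0.842) and chr12:75000001-76000000 (0.851). At 5 min the ratio lay above 1 in all 10 low blocks, between 1.07 and 1.399, and at 0 min between 0.929 and 1.00. When the 2 windows of highest mean were left out of each block, the 20 named blocks kept their call.

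Called blocks lay side by side more often for gains than for losses of ratio. The 333 higher blocks formed 179 runs, of which 31 had 3 blocks or more. The 260 lower blocks formed 185 runs, of which 12 had 3 or more. The longest higher runs were chr17:71000001-81000000, with a ratio of 1.17 (1.15 to 1.2003), and chr22:41000001-51000000, with 1.202 (1.16 to 1.24). Next came chr11:63000001-72000000, with 1.16 (1.13 to 1.19), and chr19:1-9000000, with 1.26 (1.21 to 1.303). The longest lower runs were chr5:100000001-106000000, with 0.864 (0.832 to 0.896), and chr3:85000001-90000000, with 0.882 (0.848 to 0.918). The split into runs was not tested, and higher calls were also more frequent.

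The block ratio at 30 min was highest within 2 Mb of the chromosome ends and lower farther in. Of 37 blocks whose centre lay within 1 Mb of an end, 23 (62.2%) were called higher and 0 lower, with a median ratio of 1.13. Of 39 blocks whose centre lay 1 to 2 Mb from an end, 28 (71.8%) were called higher and 1 lower, with a median ratio of 1.16. At 2 to 5 Mb the median was 1.08, at 5 to 10 Mb 1.03 and at 10 to 20 Mb 1.01. Beyond 40 Mb it was 0.971, and 148 of 1119 blocks (13.23%) were called lower against 65 (5.81%) higher. At 0 min all these medians lay between 0.998 and 1.01. At 5 min the median was 0.833 within 1 Mb, 0.810 at 1 to 2 Mb and 1.04 beyond 40 Mb. At both times the outermost blocks thus lay nearer to 1 than those at 1 to 2 Mb.

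**Figure D3:**
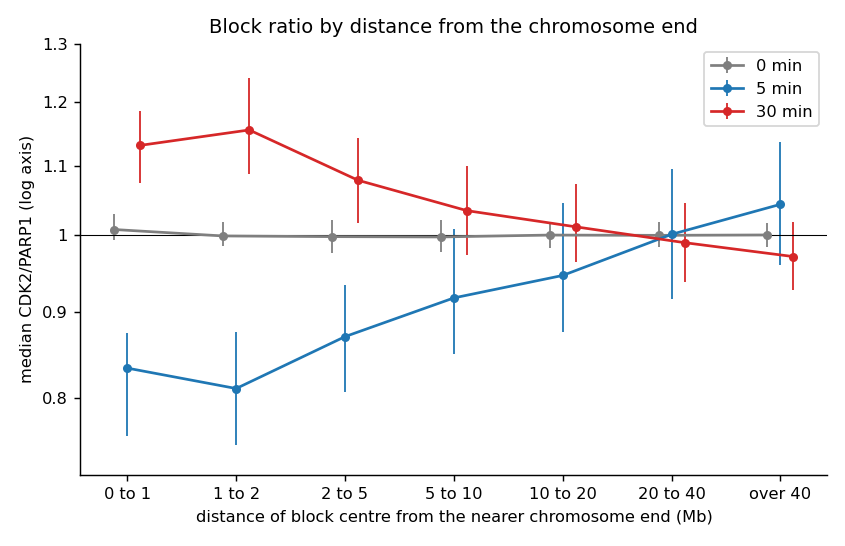
Median CDK2/PARP1 ratio of 1 Mb blocks (log axis) by distance of the block centre from the nearer chromosome end, at 0, 5 and 30 min; bars span the quartiles of blocks. The 30 min medians are 1.13 within 1 Mb and fall from 1.16 at 1 to 2 Mb to 0.971 beyond 40 Mb, the 5 min medians are 0.833 within 1 Mb and rise from 0.810 to 1.04, and the 0 min medians stay between 0.998 and 1.01.

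Bands taken as gene-rich or gene-poor from general knowledge were compared next, with their Mb limits on hg19 set by hand. Genes per band were not counted, and the bands were chosen with earlier results of these data known. Most of the gene-rich bands reach or lie near a chromosome end, and the gene-poor bands lie farther in. The comparison therefore shares blocks with that by distance from the end, and gene content was not separated from that distance. The 91 blocks of 23 gene-rich bands held 3.29% of CDK2 and 2.79% of PARP1 reads at 30 min, a ratio of 1.18 (widened interval 1.17 to 1.19). Their median block ratio was 1.17, against 0.991 over all blocks. Of the 91 blocks 73 (80.2%) were called higher and 0 lower, against 12.5% and 9.77% of all blocks. The blocks of 21 gene-poor bands held 6.33% of CDK2 and 6.87% of PARP1 reads, a ratio of 0.922 (0.916 to 0.928). Of these 68 (34.34%) were called lower and 0 higher.

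The ratio of gene-rich over gene-poor bands depends on no scaling. It was 1.01 (1.00 to 1.02) at 0 min, 0.673 (0.663 to 0.683) at 5 min and 1.28 (1.26 to 1.29) at 30 min. The widened intervals of the 3 times do not overlap. In the gene-rich bands CDK2 held 2.52%, 2.39% and 3.29% of its reads at 0, 5 and 30 min, and PARP1 2.51%, 2.99% and 2.79%. In the gene-poor bands CDK2 held 7.45%, 7.82% and 6.33%, and PARP1 7.47%, 6.60% and 6.87%. At 5 min PARP1 was thus the protein with the larger share in gene-rich bands and CDK2 the one with the smaller, and at 30 min CDK2 had passed PARP1.

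Among gene-rich bands 19p13.3 had 1.29 (1.23 to 1.34) and 9q34.3 had 1.27 (1.22 to 1.33). The band 11p15.5, read from 1 to 2000000, had 1.27 (1.17 to 1.37). The band 16p13.3, which holds the alpha globin genes, had 1.21 (1.16 to 1.26), 17q25.3 had 1.18 (1.14 to 1.22) and 21q22.3 had 1.18 (1.14 to 1.22). The lowest was 13q34 with 1.09 (1.04 to 1.14), at the end of gene-poor chromosome 13. The widened interval lay above 1 in all 23, and in 22 of them the 5 min ratio lay below 1. The exception, 1p36.33 to 1p36.32, had 2.11 at 30 min and 1.85 at 5 min. Without the 2 windows of highest mean in each of its blocks it had 1.22 (1.15 to 1.29) and 0.738.

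In gene-poor bands the ratio at 30 min was 0.889 (0.864 to 0.915) in 5q21, 0.895 (0.854 to 0.937) in 4q13.1, 0.906 (0.879 to 0.933) in 5q14.3 and 0.908 (0.888 to 0.929) in 1q31. The interval lay below 1 in 20 of 21 bands. Only 20p12.1, with 1.00 (0.951 to 1.055), was not apart from 1. These sides of 1 rest on scaling by totals and hold with TMM factors for the class as a whole, at 0.952. With scaling on the tenth of windows of lowest mean the class had 1.00.

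**Figure D4:**
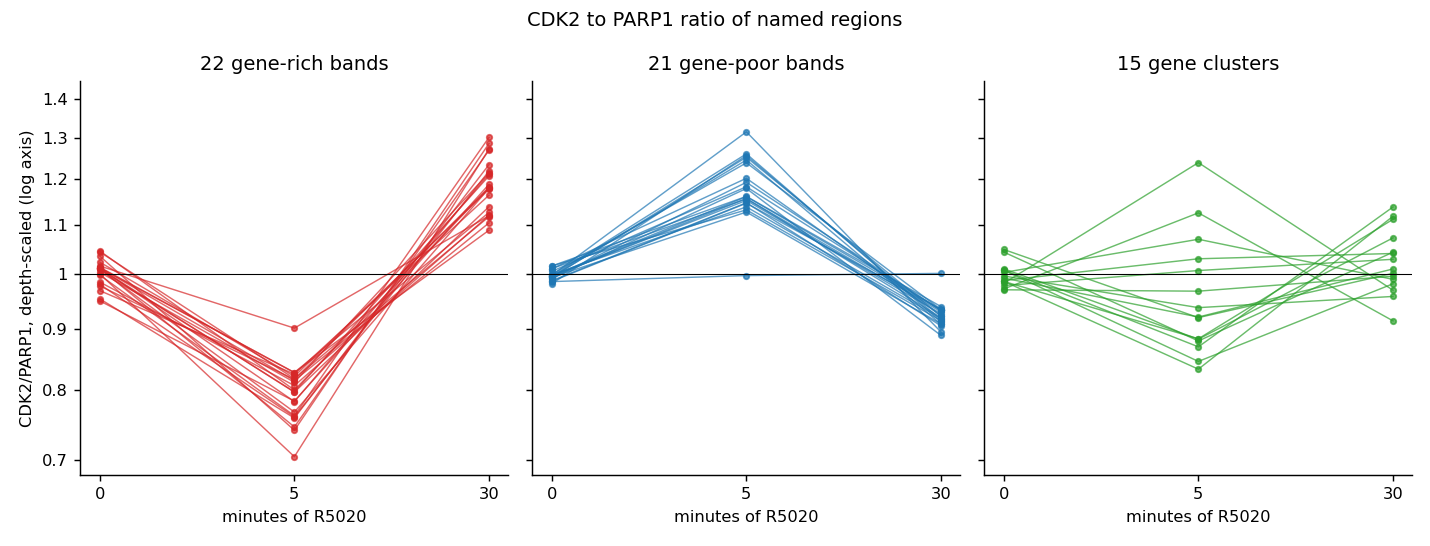
CDK2/PARP1 ratio (log axis) of each named region at 0, 5 and 30 min, 1 line per region; 1p36, whose ratio falls from 2.11 to 1.22 without its highest windows, is left out. Gene-rich bands run from about 1 to below 1 to above 1, 20 of 21 gene-poor bands run the opposite way, and gene clusters show no common course.

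Gene clusters did not share a direction. Each was read as the whole Mb that hold it, so reads from outside the cluster are included and the values are not those of the cluster alone. The cluster of KRAB zinc finger genes in 19q13.4, which code for repressors of transposable elements, had a ratio of 1.14 (1.09 to 1.18) at 30 min. A second such cluster in 19p12 had 0.990 (0.928 to 1.06), and the 2 intervals do not overlap. The major histocompatibility complex, with its antigen-presenting genes, had 1.07 (1.03 to 1.11). Of the 4 HOX clusters, which pattern the body axis, HOXC had 1.11 (1.04 to 1.19), HOXB 1.04 (0.970 to 1.12), HOXD 0.996 (0.927 to 1.07) and HOXA 0.958 (0.890 to 1.03). The type II keratin cluster, whose products pair with type I keratins, had 1.12 (1.06 to 1.17), and the type I cluster 0.982 (0.913 to 1.055). The olfactory receptor cluster of 11p15.4, silent in most tissues, had 0.914 (0.840 to 0.994), and that of 11q11 had 0.970 (0.872 to 1.08). With TMM factors the interval of 11p15.4 no longer left out 1. The histone cluster of 6p22 had 1.00 (0.940 to 1.07). Of the 37 blocks of these clusters 9 (24.32%) were called higher and 0 lower, against 12.5% and 9.77% of all blocks.

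Blocks that hold genes of the hormone response, luminal genes and the genes of both proteins and of cyclins were read as blocks. A value of 1 Mb says nothing of a single gene. The 22 genes lay in 22 blocks, of which 7 were called higher and 1 lower, against 12.5% and 9.77% of all blocks. Their median ratio was 1.08 against 0.991 over all blocks. The 7 include the blocks of KRT18 and PARP1, which were not listed as hormone targets. In gene-rich bands 80.2% of blocks were called higher, and what gene content contributes to the 7 was not tested. The block of PGR, the gene of the progesterone receptor, was the 1 lower. Its CDK2 level was 417, 421 and 369 reads per 1000000 at 0, 5 and 30 min and its PARP1 level 422, 391 and 417, and its ratio at 30 min was 0.886 (0.811 to 0.967). CDK2 at 30 min was the lowest of the 6 values there. With TMM factors this call was lost. The block of ESR1, the estrogen receptor gene, had 0.913 (0.823 to 1.01).

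Among blocks of progestin targets, that of FKBP5, which codes for a chaperone of steroid receptors, had CDK2 levels of 361, 359 and 461 and PARP1 levels of 370, 418 and 392. Its ratio at 30 min was 1.18 (1.09 to 1.28). The block of HSD11B2, an enzyme that inactivates cortisol, had 1.18 (1.08 to 1.28), that of the transcription factor STAT5A had 1.18 (1.09 to 1.26), that of CCND1, the gene of cyclin D1, had 1.16 (1.07 to 1.26), and that of the clock gene PER1 had 1.15 (1.04 to 1.27). Not called were the blocks of GREB1 (1.08, 0.983 to 1.19), TNFSF11 (1.03, 0.929 to 1.13), SGK1 (0.989), DUSP1 (1.096) and CDKN1A (1.07). TNFSF11 codes for RANKL, a paracrine signal of progestin in the breast.

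The blocks of the immediate early genes FOS, EGR1 and JUN, transcription factors that respond within minutes, had 1.09, 1.06 and 1.0499 and none was called. Blocks of luminal identity genes differed in side. Those of GATA3 and FOXA1, factors that open chromatin for hormone receptors, had 0.939 (0.875 to 1.01) and 0.914 (0.838 to 0.995). That of the keratin gene KRT18, which is also part of the type II keratin region above, had 1.11 (1.03 to 1.19). The block that holds the PARP1 gene itself had 1.17 (1.09 to 1.26), and that of the CDK2 gene 1.047 (0.972 to 1.13). The blocks of the cyclin genes CCNE1 and CCNA2 had 1.096 and 0.974 and were not called. At 0 min the ratio lay between 0.940 and 1.08 in all 22.

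Single windows of 10 kb varied far more than blocks. At 30 min the middle 90% of windows held 38 to 300 CDK2 and 100 to 411 PARP1 reads, and the middle 90% of window ratios ran from 0.392 to 1.88, against 0.662 to 1.47 at 0 min. Calls on windows needed a ratio of 2 or more, or of 0.5 or less. They also needed a Benjamini-Hochberg adjusted p under 0.05 from an exact binomial test, two-sided. This test compares the 2 libraries. It called 9422 windows higher (3.57%) and 25759 lower (9.77%) for CDK2 at 30 min. At 0 min it called 931 (0.353%) and 1562 (0.593%), and at 5 min 20125 (7.63%) and 43441 (16.5%). After division of the counts by the dispersion of the pair, 15.02, 6 windows (0.00228%) were higher and 2 (0.000759%) lower. This stricter rule called 11 windows higher (0.00417%) and 0 lower before hormone. The 5 min libraries gave 6 higher windows and 1 lower one (0.000379%).

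Few called windows had a called neighbour or were called again at 5 min, and the shares are given beside those of all windows. Of the windows called higher at 30 min, 6.40% were followed by a window called higher, against 3.57% of all windows, and 11.04% by a window called lower, against 9.77%. Of those called lower, 12.06% were followed by another lower one. In windows called higher the median ratio of 30 to 0 min, scaled by totals, was 2.02 for CDK2 and 0.854 for PARP1. In windows called lower it was 0.384 and 1.04. The windows were chosen by their reads at 30 min, so these values describe them and do not show which protein changed. In 343 of the lower windows CDK2 held 0 reads. Of the windows higher at 30 min, 840 (8.92%) were higher at 5 min, which is 4.17% of those higher at 5 min. Over all windows 7.63% were higher at 5 min, close to the 8.92%. Of the windows higher at 30 min 2206 (23.4%) were lower at 5 min, against 16.5% of all. Of the windows lower at 30 min, 4516 (17.5%) were lower at 5 min, against 16.5% of all, and are 10.4% of those lower at 5 min. A further 2687 (10.4%) were higher at 5 min, against 7.63% of all.

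Calls also followed depth. In the tenth of windows with the fewest reads in the 4 other libraries, 9.79% were called higher and 17.5% lower, and in the tenth with the most reads 0.495% and 4.51%. What depth contributes to the calls was not tested. Since a block is the sum of its windows, the windows of called blocks are a description. In blocks called higher 61.1% of windows had a ratio above 1, in blocks not called 46.1% and in blocks called lower 34.8%. The correlation of window log2 ratios, with 1 read added to each count, was 0.0346 at a distance of 10 kb and 0.0181 at 1000 kb at 30 min. At 0 min it was 0.00808 and -0.0012. All these correlations are weak, and those of 5 and 30 min extend over Mb.

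**Figure D5:**
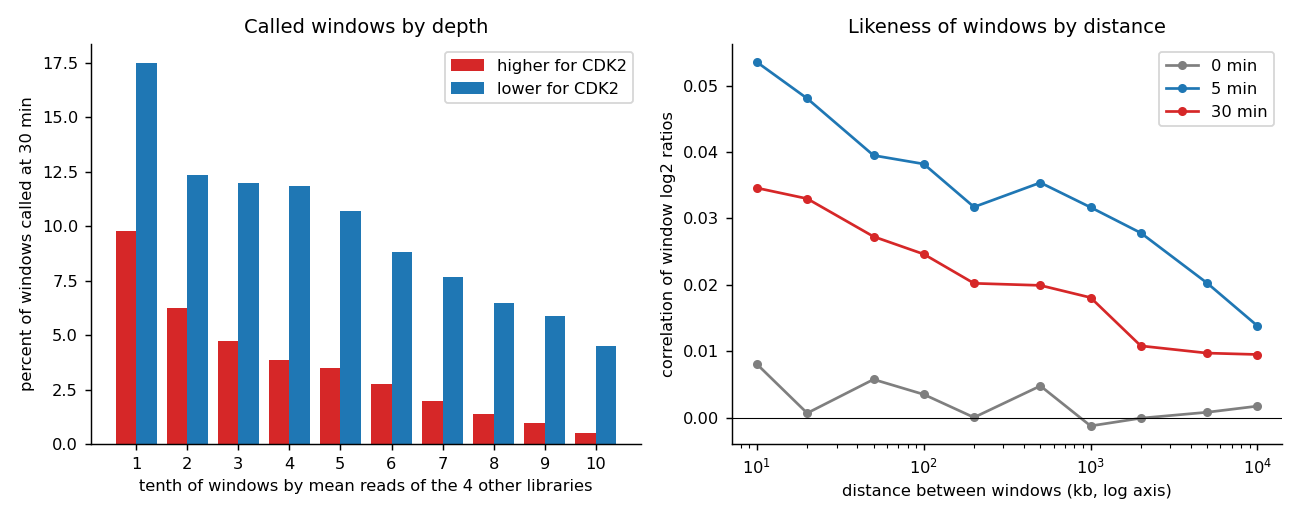
Left, percent of 10 kb windows called higher (red) or lower (blue) for CDK2 at 30 min in 10 equal groups of windows ordered by mean reads of the 4 other libraries, from 9.79% and 17.5% in the first to 0.495% and 4.51% in the tenth. Right, correlation of window log2 ratios against their distance in kb (log axis), which at 30 min is 0.0346 at 10 kb and 0.0181 at 1000 kb.

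The 6 windows higher after the dispersion had high ratios before hormone as well. The window chr1:560001-570000 held 38577, 69604 and 38315 CDK2 reads at 0, 5 and 30 min and 7561, 8954 and 7886 PARP1 reads. CDK2 was 286 times and PARP1 36.9 times the median window at 30 min, and 252 and 40.2 times at 0 min. The ratio at 30 min was 7.69 (6.996 to 8.46 after widening). Whether reads that match several places of the genome add to these 6 windows was not tested. The window chr5:134260001-134270000 held 16031 CDK2 and 3994 PARP1 reads, or 6.35 as a ratio (5.55 to 7.29), and set the ratio of its block. Without its 2 windows of highest mean that block had 1.15 (1.06 to 1.25) in place of 1.91 (1.797 to 2.03).

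Of the other 4, chr5:79940001-79950000 had 3.71 (2.52 to 5.54), chr5:99380001-99390000 had 3.86 (2.36 to 6.4996), chr5:134250001-134260000 had 4.38 (3.105 to 6.28) and chr1:570001-580000 had 5.84 (3.74 to 9.43). All 6 had ratios between 2.65 and 6.31 before hormone. The 2 lower windows were chr21:9820001-9830000, with 3157 CDK2 and 10364 PARP1 reads and a ratio of 0.482 (0.411 to 0.563), and chr1:91850001-91860000, with 820 and 2844 reads and 0.456 (0.331 to 0.619).

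Of the windows named by rank, 6 were higher at 30 min and not called higher after the dispersion. At chr2:33250001-33260000 CDK2 held 197, 168 and 380 reads at 0, 5 and 30 min and PARP1 195, 262 and 142. The ratio at 30 min was 4.23 (1.94 to 10.1), against 1.25 before hormone. At chr19:23390001-23400000 CDK2 held 107, 244 and 216 reads and PARP1 120, 127 and 51, a ratio of 6.70 (1.98 to 32.1). In both windows, which were chosen by their reads at 30 min, CDK2 was higher and PARP1 lower at 30 min than at 0 min. The window to the left of the first held 79 CDK2 and 210 PARP1 reads and that to its right 119 and 264, so neither neighbour shared the excess.

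The 10 lower windows named by rank held between 1 and 20 CDK2 reads and 225 to 357 PARP1 reads at 30 min. The foremost, chr6:18770001-18780000, held 236, 388 and 11 CDK2 reads at the 3 times and 252, 286 and 354 PARP1 reads, a ratio of 0.0492 (0.000374 to 0.376). At chr11:73380001-73390000 CDK2 held 101, 93 and 6 reads and PARP1 147, 205 and 261. The depletion was seen in CDK2 at 30 min and not at 0 min in these windows, which were chosen by their reads at 30 min. On both sides of the first, the neighbouring windows held 250 and 241 CDK2 reads, so neither neighbour shared the loss. This did not hold for all 10. Beside chr5:3890001-3900000 the neighbours held 52 and 43 CDK2 reads and 223 and 168 PARP1 reads, so both were also low for CDK2. None of these 10 was called after the dispersion.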

How the data were processed

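ChIP-seq reads of 6 libraries, CDK2 and PARP1 at 0, 5 and 30 min, were analysed as whole-number read counts per 10 kb window, which the authors deposited without normalization. The submitters' processing notes name Bowtie 1.0.0 and the build hg19 (GRCh37). No source used here says how duplicate or multiply matching reads were handled, and input libraries were not analysed here. Ratios were scaled by library totals. Intervals are exact conditional 95% intervals, for blocks and chromosomes on counts divided by each library's dispersion and for windows by that of the pair, the robust variance around the local ratio of 20 windows on each side. Named blocks and windows are the 10 in each direction whose widened bound lies farthest from 1, with at most 1 window per Mb. Band limits and the blocks of genes were set by hand at 1 Mb. The chromosomes of all 22 genes matched the RefSeq table (GRCh38.p14), whose coordinates were not used. Members and lists were chosen with earlier results of these data known, and the comparison of libraries across times, the ratios of ratios and the scaling on the median block were added after the data had been seen. Scripts were tested on simulated data. Tools were matplotlib 3.10.9, pandas 2.3.3, scipy 1.17.1, numpy 2.4.6 and Python 3.11.15. R 4.3.3 with edgeR 4.0.16 and DESeq2 1.42.0 gave scaling factors only.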

Additional observations from a re-analysis of the deposited data

Results flagged for a closer look

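The CDK2/PARP1 ratio lay on opposite sides of 1 at 5 and 30 min in 5 of the items reported, with 1 library per protein and time, so the difference between times was not tested. The ratio at 30 min over that at 5 min was 1.48 for the blocks of gene-rich bands, 0.778 for those of gene-poor bands, 1.36 for chromosome 22, 1.296 for chromosome 19 and 0.893 for chromosome 4. The 5 min value of each contains the CDK2 library with a dispersion of 51.8, the highest of the 6. What this contributes was not tested.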

How the results depend on the processing

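Scaling moved the most values. TMM, DESeq2 and lowest-mean scaling raised all log2 ratios by 0.0457, 0.0477 and 0.119. With TMM factors 534 blocks were higher and 81 lower, gene-rich and gene-poor bands had 1.21 and 0.952, and chromosomes 19, 22 and 4 had 1.17, 1.18 and 0.999. Chromosomes 12, 13, 3, 5, 6, 7 and 8 then had 1.02, 1.00, 1.01, 1.01, 1.02, 1.02 and 1.01, thus above 1. With DESeq2 size factors 545 blocks were higher and 79 lower, the bands had 1.22 and 0.953, chromosomes 19, 22 and 4 had 1.17, 1.18 and 1.00, and chromosomes 12, 13, 3, 5, 6, 7 and 8 had 1.02, 1.00, 1.01, 1.01, 1.02, 1.02 and 1.01. With scaling on the tenth of windows of lowest mean 14471 windows and 991 blocks were higher and 7 blocks lower, the bands had 1.28 and 1.00, and chromosomes 19, 22 and 4 had 1.23, 1.25 and 1.051. Chromosomes 12, 13, 3, 5, 6, 7 and 8 had 1.07, 1.06, 1.06, 1.06, 1.07, 1.07 and 1.06, and 1p31.1, 2q22, 3p12, 6q12, 6q16.1, 12q21, 13q21, 13q31, 18q22 and 21q21 had 1.02, 1.01, 1.01, 1.00, 1.01, 1.01, 1.00, 1.01, 1.02 and 1.01, all above 1. Scaling on the median block gave 1.19 and 0.931 for the bands and 1.14, 1.16 and 0.976 for chromosomes 19, 22 and 4. These shifts follow from the scaling itself and leave the ratios of 2 chromosomes or 2 band classes as they are. Fold limits and block sizes set the counts: 36472 and 55984 windows higher and lower at 1.5-fold, 991 and 8844 at 3-fold, 6 and 2 after the dispersion, 84 and 7 blocks at 1.2-fold, 549 higher blocks of 500 kb, and 164 and 102 blocks of 2 Mb. Without the 1% of windows of highest mean chromosome 19 had 1.14. Thinning, count minimums and adding chromosome X kept all counts within 1.5-fold. Substituting a library of another time was first run among these settings and reversed many results, and was then set apart, after its values were seen, because it compares other libraries. With CDK2 of 0 min in place of 30 min, gene-rich and gene-poor bands had 0.903 and 1.08 and chromosomes 22, 19 and 4 had 0.924, 0.937 and 1.04. With CDK2 of 5 min they had 0.854, 1.14, 0.884, 0.916 and 1.06. With PARP1 of 0 min they had 1.31, 0.848, 1.25, 1.23 and 0.932, and with PARP1 of 5 min 1.099, 0.960, 1.09, 1.07 and 0.985. No paired analysis was possible because each protein and time has 1 library. Depth limits the precision of single windows: with 216 CDK2 and 51 PARP1 reads, the widened interval of a ratio of 6.70 ran from 1.98 to 32.1.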

Other observations

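Arms of a chromosome differed in the ratio at 30 min. On chromosome 4 the short arm had 1.01 (widened interval 0.997 to 1.03) and the long arm 0.951 (0.942 to 0.960), on chromosome 9 the short arm had 0.976 (0.960 to 0.993) and the long arm 1.04 (1.03 to 1.051), and on chromosome 18 the short arm had 1.046 (1.02 to 1.07) and the long arm 0.987 (0.974 to 1.00). The short arm of chromosome 19 had 1.17 (1.14 to 1.19) and its long arm 1.104 (1.08 to 1.12). On chromosome 16 both arms had 1.07. At 0 min the short arm of chromosome 1 had 1.03, and the other arms named here lay between 0.995 and 1.02. The short arm of chromosome 1 holds the windows chr1:560001-570000 and chr1:570001-580000, with ratios of 6.31 and 6.01 at 0 min. They were not left out of its value.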
